A study of Mus musculus with 8 samples.

Results

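Transcripts of 10 genes that mark the epicardium and mesothelium were examined in primary cardiac fibroblasts of the mouse. The genes were chosen by symbol as known markers, with earlier results of these data known, and all 10 were found among the 22274 genes of the count table. They comprise the transcription factors Wt1, Tbx18 and Tcf21, the surface proteins Upk3b, Upk1b and Msln, and the keratins Krt7, Krt8, Krt18 and Krt19. Bulk RNA-seq was run on 4 libraries labelled GFP and 4 labelled OEIRF7, with 4 replicates per label. Both groups were primary fibroblasts from mouse heart, and both received TGF-β, the cytokine that drives fibroblasts towards the myofibroblast state. The GFP libraries carried the empty vector and the OEIRF7 libraries a vector for IRF7, a transcription factor of the interferon response. The vector is an adeno-associated virus in the deposited design text but an adenovirus in the study's methods. The study's reagents include an adenovirus for FLAG-tagged human IRF7 under the CMV promoter, which also carries EGFP. They also include an adeno-associated virus for mouse Irf7 under the periostin promoter, described as injected into mice by the tail vein. For the RNA-seq cells the study names the adenovirus. The mouse strains of the study had a C57BL/6 J background, while the age and sex of the source mice and the number of animals pooled are not given in the sources used here. The study speaks of biological replicates but ties none of these libraries to a culture or an animal, so p-values measure the spread between these libraries, which may be technical. The comparison asks what IRF7 overexpression did to TGF-β-treated fibroblasts.

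The epicardium is the mesothelial sheet on the outer surface of the heart, and mesothelium of the same kind lines the pericardial, pleural and peritoneal cavities. During development, epicardial cells express Wt1, Tbx18 and Tcf21, leave the sheet by epithelial-to-mesenchymal transition and give rise to cardiac fibroblasts and mural cells. Tcf21 stays on in resident cardiac fibroblasts and is widely used to mark their quiescent state, so it is not a marker of the epicardium alone. Uroplakins, mesothelin and the simple-epithelial keratins belong to the mesothelial sheet itself.

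Of the whole series, total counts per library ranged from 24454801 to 28658826. The mouse gene Irf7 was at 118 ± 24.0 CPM (the count scaled to the size of the library, as mean ± SD, n = 4) in the libraries labelled GFP and 15.2 ± 0.82 CPM in the libraries labelled OEIRF7. It was therefore lower under the label that names its overexpression. A human IRF7 transcript, as the adenovirus of the reagent list would give, is not the mouse gene counted here. If that vector was used, this level need not measure the introduced transcript. How many reads of a human transcript would map to mouse Irf7 was not tested. The cause of the lower level of mouse Irf7 was not tested either, and the labels were taken as given. Directions are given below by the labels of the libraries. Among 13533 genes that passed the filter on low counts, 29.0% were called higher and 29.9% lower in the OEIRF7 libraries by edgeR's quasi-likelihood test at an adjusted p under 0.05. In 53.8% the CPM values of the 2 groups did not overlap.

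Tcf21 and Upk3b were both lower in the libraries labelled OEIRF7 by more than 2-fold, and Krt19 was higher by nearly 4-fold. Tbx18 was modestly lower and Msln slightly higher. Upk1b, Wt1, Krt7 and Krt18 did not pass the test, and Krt8 had too few counts to be tested. Thus 9 of 10 members were tested, of which 2 were called higher and 3 lower. Those counts lie near the 29.0% and 29.9% of all genes, so the number of calls does not set the markers apart, and the results concern the individual genes. Bulk libraries cannot tell fewer cells of a type from less RNA per cell.

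**Figure D1:**
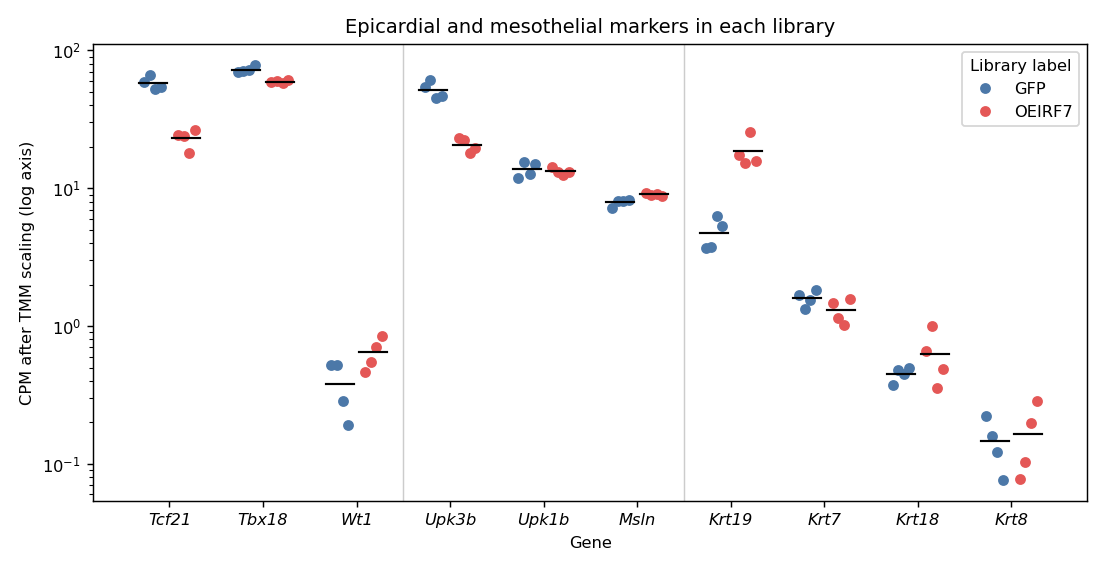
CPM of each marker (vertical log axis, after TMM scaling) in the 4 libraries labelled GFP and the 4 labelled OEIRF7. Points are libraries and bars are group means. The points of Tcf21, Upk3b, Tbx18, Krt19 and Msln do not overlap between the labels, while those of the other 5 genes do, and 53.8% of all tested genes do not.

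The upstream sequences of Tcf21 and Upk3b are shown because these members fell by nearly the same amount. RefSeq promoter sequences matched 6 of the 10 members (Tbx18, Tcf21, Upk3b, Krt7, Krt8 and Krt18). The window runs from 250 to 51 bases before the RefSeq start of the gene, 200 bases in all, on GRCm38.p6 and written 5′ to 3′ on the strand of the gene. GENCODE places the start of Upk3b at the same base and that of Tcf21 31 bases further upstream, so for Tcf21 the window runs from 219 to 20 bases before the GENCODE start. For Tcf21 it lies on the minus strand at chr10:22820194-22820393, and the capitals mark a match to an interferon regulatory factor half-site. For Upk3b it lies on the plus strand at chr5:136038246-136038445, and the capitals mark a match to a TEAD site.
Tcf21: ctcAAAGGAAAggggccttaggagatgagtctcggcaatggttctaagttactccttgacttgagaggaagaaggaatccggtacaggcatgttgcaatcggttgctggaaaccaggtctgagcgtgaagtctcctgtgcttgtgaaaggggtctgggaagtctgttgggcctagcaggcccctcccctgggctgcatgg
Upk3b: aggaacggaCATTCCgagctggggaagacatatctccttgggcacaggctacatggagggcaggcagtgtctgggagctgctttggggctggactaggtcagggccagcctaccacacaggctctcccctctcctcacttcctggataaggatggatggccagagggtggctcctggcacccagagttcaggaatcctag

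Motifs were searched as letters on both strands, and none of the 5 is contained in another. The half-site AANNGAAA was matched in Tcf21 by AAAGGAAA, 247 to 240 bases before the RefSeq start (216 to 209 before the GENCODE start), and 17.8% of 32851 windows of this length held it, or 14.1% of those of tested genes. The TEAD site CATTCC was matched in Upk3b, 241 to 236 bases before the start, and 10.7% of windows held it, or 9.34% of those of tested genes. An AP-1 site (TGANTCA), a GC box (GGGCGG) and a TATA box (TATAAA) were held by neither, against 5.57%, 24.6% and 9.14% of all windows and 4.08%, 42.1% and 4.96% of those of tested genes. The windows of Tcf21 and Upk3b thus shared no searched motif. Those of Tbx18, Krt8 and Krt18 held none of the 5, and that of Krt7 held 3 GC boxes. The window of Krt7 lies wholly within the gene as GENCODE draws it, since other Krt7 transcripts start further upstream, and 90 bases of the window of Krt8 do. A match is a description of letters and says nothing of binding.

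Among the transcription factors, Tcf21 carried the largest difference. Tcf21 encodes a basic helix-loop-helix factor needed for epicardial cells to become fibroblasts, and its gene lies at chr10:22817281-22820174 (GRCm38, minus strand). It was measured at 59.3, 66.5, 52.9 and 54.3 CPM in GFP replicates 1 to 4 and at 24.2, 23.9, 18.1 and 26.3 CPM in OEIRF7 replicates 1 to 4. The highest OEIRF7 library stayed below the lowest GFP library. The log2 fold change was -1.33 (SE 0.095, 95% interval -1.54 to -1.13), which left 0.397 of the GFP level, and the adjusted p by edgeR was 2.04e-08. A two-sided exact permutation test on log2 CPM gave p = 0.029, the smallest that 4 against 4 can give. Of all tested genes, 252 (1.86%) fell at least as far. The annotated span of the antisense gene Gm10824 covers all 2894 bases of the span of Tcf21, introns included. No counts are given for Gm10824 itself. The strand setting of the counting is not given in the sources used here, so whether reads from that partner were counted with Tcf21 is not known.

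Tbx18, a T-box factor of the proepicardium and epicardium, lies at chr9:87702800-87731260 (minus strand). Its CPM was 69.3, 70.6, 71.7 and 78.7 in the GFP libraries and 58.7, 59.7, 58.2 and 60.6 in the OEIRF7 libraries. The groups did not overlap, and the OEIRF7 libraries lay within a narrow range. Tbx18 fell by 0.29 on the log2 scale (SE 0.044, 95% interval -0.39 to -0.20, edgeR adjusted p = 4.41e-05, exact permutation p = 0.029), a fall of 18.3%. A fall of that size or more was met by 23.2% of all tested genes. The gene D030062O11Rik on the opposite strand overlaps it over 1976 bases.

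Within each library, the ratio of Tcf21 to Tbx18 counts was 0.857, 0.942, 0.737 and 0.690 in the GFP libraries and 0.413, 0.400, 0.312 and 0.433 in the OEIRF7 libraries. A ratio within a library does not depend on scaling, and here it moved in every library labelled OEIRF7 to below the GFP range. This ratio and those with Upk3b below were chosen after their values were seen and are given as description, with no test.

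Wt1 encodes a zinc-finger factor that defines the embryonic epicardium and is re-expressed after cardiac injury, and its gene lies at chr2:105126529-105173616 (plus strand). It was represented by 14, 13, 7 and 5 reads in the GFP libraries and by 12, 16, 18 and 21 reads in the OEIRF7 libraries. These counts correspond to 0.38 ± 0.17 and 0.64 ± 0.17 CPM (n = 4 each), and the groups overlapped. The log2 fold change was 0.75 (SE 0.36) with a 95% interval of -0.03 to 1.53, so at this depth neither no difference nor a doubling lies outside the interval. The test was not passed (edgeR adjusted p = 0.091, exact permutation p = 0.11). Of the 3 factors, the one most specific to the epicardium was thus at the edge of detection, while Tcf21 and Tbx18 were well measured.

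**Figure D2:**
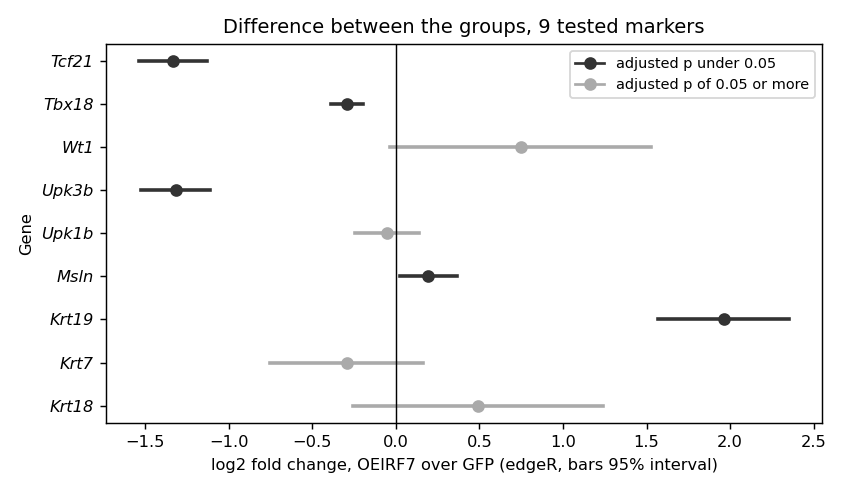
Log2 fold change of OEIRF7 over GFP for the 9 tested markers (horizontal axis), with points for the edgeR estimate and bars for the 95% interval. Dark symbols passed an adjusted p under 0.05. Tcf21 (-1.33) and Upk3b (-1.32) lie together on the left, Krt19 (1.96) lies far to the right, and the intervals of Wt1, Upk1b, Krt7 and Krt18 cross 0.

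Among the surface proteins, the 2 uroplakins differed from each other. Uroplakins are tetraspanins and their partners that form plaques on the urothelium, and Upk3b and Upk1b are also made by mesothelium. Upk3b (chr5:136038496-136046487, plus strand) was at 54.5, 60.8, 45.0 and 46.9 CPM in the GFP libraries and at 23.1, 22.5, 17.9 and 19.5 CPM in the OEIRF7 libraries. Every OEIRF7 library lay below every GFP library. The log2 fold change was -1.32 (SE 0.097, 95% interval -1.52 to -1.11, edgeR adjusted p = 2.77e-08, exact permutation p = 0.029), and 264 tested genes (1.95%) fell at least as far. Upk1b (chr16:38773184-38800328, minus strand) was at 11.8, 15.5, 12.7 and 15.1 CPM in the GFP libraries and at 14.2, 13.1, 12.6 and 13.2 CPM in the OEIRF7 libraries. These groups overlapped throughout. Its log2 fold change of -0.05 (SE 0.089) had a 95% interval of -0.24 to 0.14 and an edgeR adjusted p of 0.64, so a fall of the size seen for Upk3b lies outside its interval.

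The ratio of Upk3b to Upk1b counts was 4.62, 3.93, 3.55 and 3.12 in the GFP libraries and 1.63, 1.72, 1.43 and 1.48 in the OEIRF7 libraries. The ratio of Upk3b to Tcf21 counts was 0.918, 0.914, 0.851 and 0.864 against 0.954, 0.941, 0.989 and 0.742. The OEIRF7 values of this ratio spanned the GFP range and were more spread (SD of the log2 ratio 0.19 against 0.056). Overlap follows from the similar falls of Upk3b and Tcf21, a pair chosen after its values were seen. The remaining uroplakins Upk1a, Upk2 and Upk3a did not pass the filter, with a summed level of at most 0.465 CPM in any library, and Upk3a had no count in any.

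Msln encodes mesothelin, the glycosylphosphatidylinositol-anchored antigen of mesothelial cells, at chr17:25748613-25754378 (minus strand). It was at 7.20, 8.09, 8.14 and 8.20 CPM in the GFP libraries and at 9.30, 8.89, 9.15 and 8.84 CPM in the OEIRF7 libraries. The groups did not overlap, but the gap between them was small. The log2 fold change was 0.19 (SE 0.080, 95% interval 0.02 to 0.36, exact permutation p = 0.029), with an edgeR adjusted p of 0.048. This call was lost in 11 of 16 alternative settings, which include leaving out any 1 library. Without GFP replicate 1, the lowest value, the log2 fold change was 0.15 and the edgeR adjusted p was 0.15. A rise at least as large was found in 29.2% of all tested genes.

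Among the keratins, Krt19 was the most abundant and was the member with the largest rise. Keratins form filaments of a type I and a type II partner, and in simple epithelia the type II keratins Krt7 and Krt8 pair with the type I keratins Krt18 and Krt19. Krt19 (chr11:100140810-100148665, minus strand) was at 3.66, 3.77, 6.24 and 5.34 CPM in the GFP libraries and at 17.4, 15.3, 25.5 and 15.9 CPM in the OEIRF7 libraries. The lowest OEIRF7 library was above the highest GFP library, and replicate 3 was the highest of each group. The rise was 3.89-fold (log2 fold change 1.96, SE 0.18, 95% interval 1.57 to 2.35, edgeR adjusted p = 3.67e-07, exact permutation p = 0.029). A rise at least as large was found in 194 tested genes (1.43%).

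The other 3 keratins were scarce. Krt8 (chr15:101996698-102004482, minus strand) had 6, 4, 3 and 2 reads in the GFP libraries and 2, 3, 5 and 7 in the OEIRF7 libraries. Krt18 (chr15:102028180-102032027, plus strand) had 10, 12, 11 and 13 reads against 17, 29, 9 and 12. Krt7 (chr15:101411043-101430313, plus strand) had 45, 33, 38 and 48 reads against 38, 33, 26 and 39. The groups overlapped for all 3 genes. The log2 fold change was 0.49 for Krt18 (SE 0.35, 95% interval -0.25 to 1.24, edgeR adjusted p = 0.24) and -0.29 for Krt7 (SE 0.21, 95% interval -0.75 to 0.16, edgeR adjusted p = 0.25), so at this depth differences of moderate size were not detectable. Krt8 was left out by the filter on low counts, and with a minimum of 1 count in total its log2 fold change was 0.16 with an edgeR adjusted p of 0.87. Krt7 overlaps the antisense gene Gm671 over 1269 bases and Krt8 the noncoding gene Gm36026 over 271 bases. A pseudogene of Krt8 is annotated in the mouse, so the few reads of Krt8 are uncertain.

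Set against its fellow type I keratin, Krt19 stood at 9.80, 7.83, 14.0 and 10.8 reads per Krt18 read in the GFP libraries and at 26.4, 15.3, 72.1 and 32.6 in the OEIRF7 libraries. The ratio was higher by 1.59 on the log2 scale (log2 means 3.37 ± 0.35 and 4.96 ± 0.93, n = 4 each, exact two-sided permutation p = 0.029), with no overlap. The denominator rests on 9 to 29 reads, and with any 1 GFP library left out the difference was 1.45 to 1.73 with an exact permutation p of 0.057. With any 1 OEIRF7 library left out it was 1.19 to 1.93 with an exact permutation p of 0.029. The ratio of Krt8 to Krt18, a filament pair of simple epithelia, was 0.600, 0.333, 0.273 and 0.154 against 0.118, 0.103, 0.556 and 0.583. It overlapped widely, with a difference of -0.27 in log2 and an exact permutation p of 0.77, and its direction turned when GFP replicate 1 (0.06), OEIRF7 replicate 1 (0.09) or OEIRF7 replicate 2 (0.15) was left out.

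**Figure D3:**
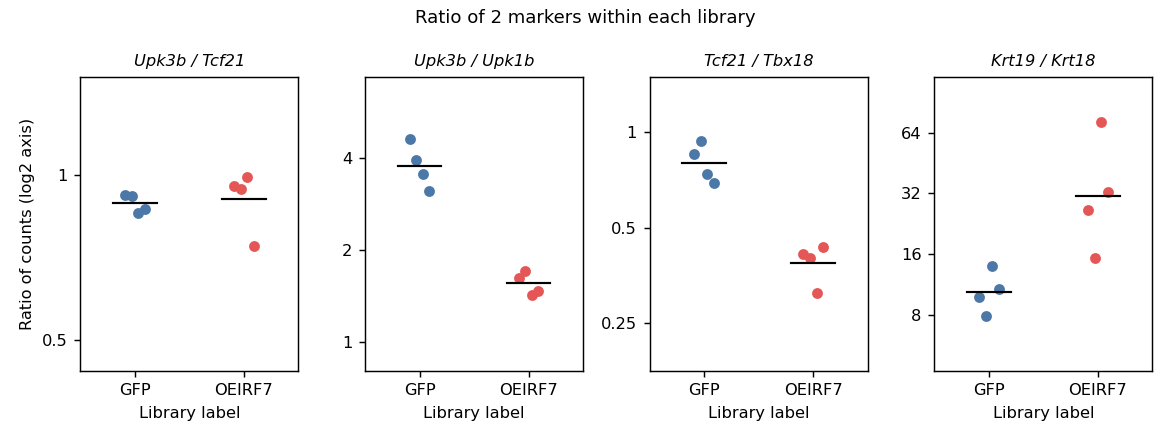
Ratio of the counts of 2 markers within each library (vertical log2 axes), by label, with bars at the mean of the log2 ratios. Upk3b over Tcf21 overlaps between the labels, Upk3b over Upk1b and Tcf21 over Tbx18 lie lower in every OEIRF7 library, and Krt19 over Krt18 lies higher in every one.

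Within each group, the library with the lowest Upk3b and the lowest Tcf21 was replicate 3, which also had the highest Krt19. The ratio of Krt19 to Upk3b counts rose from 0.067, 0.062, 0.139 and 0.114 in the GFP libraries to 0.752, 0.679, 1.42 and 0.813 in the OEIRF7 libraries. Replicate 3 had the highest ratio under both labels, and the step between labels exceeded the spread within them. With 4 libraries per label, no correlation was computed.

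Levels of different genes were compared per length, on the deposited FPKM (fragments normalized by the authors for gene length and library size). In the GFP libraries Tcf21 came first at 44.9 ± 4.79 FPKM (n = 4), followed by Tbx18 at 15.4 ± 0.88 and Upk3b at 14.5 ± 2.04, whose ranges overlapped. Upk1b at 7.19 ± 0.94, Msln at 3.71 ± 0.22 and Krt19 at 2.99 ± 0.79 came next, with Msln and Krt19 overlapping. Krt7 at 0.465, Krt18 at 0.310, Wt1 at 0.173 and Krt8 at 0.0725 FPKM were all below 1, and Wt1 overlapped both Krt18 and Krt8. Tcf21, which fibroblasts share with the epicardium, thus led the members, and Upk3b of the mesothelial sheet was not separated from Tbx18. Upk1b, Msln and Krt19 lay in the middle, and Krt7, Krt18, Wt1 and Krt8 at the bottom.

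In the OEIRF7 libraries Tcf21 was again first at 18.2 ± 2.85 FPKM, ahead of Tbx18 at 12.8 ± 0.26. Krt19 at 11.8 ± 2.96 now overlapped both Tbx18 and Tcf21, and in OEIRF7 replicate 3 it was above Tcf21 (16.2 against 14.1 FPKM). Krt19 also stood above Upk1b at 7.07 ± 0.39, Upk3b at 5.93 ± 0.73 and Msln at 4.36 ± 0.12. The same 4 genes remained below 1 FPKM, from 0.453 for Krt7 through 0.438 for Krt18 and 0.293 for Wt1 to 0.085 for Krt8. The order at the bottom did not separate beyond the spread between Krt7 and Krt18 or between Krt18 and Wt1. The summed FPKM of the 10 members was 84.2 to 98.7 in the GFP libraries and 60.1 to 63.2 in the OEIRF7 libraries. Tcf21 made up 47.6% to 52.0% of that sum under GFP and 23.5% to 33.4% under OEIRF7, and Krt19 made up 2.40% to 4.67% and 16.2% to 27.0%.

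**Figure D4:**
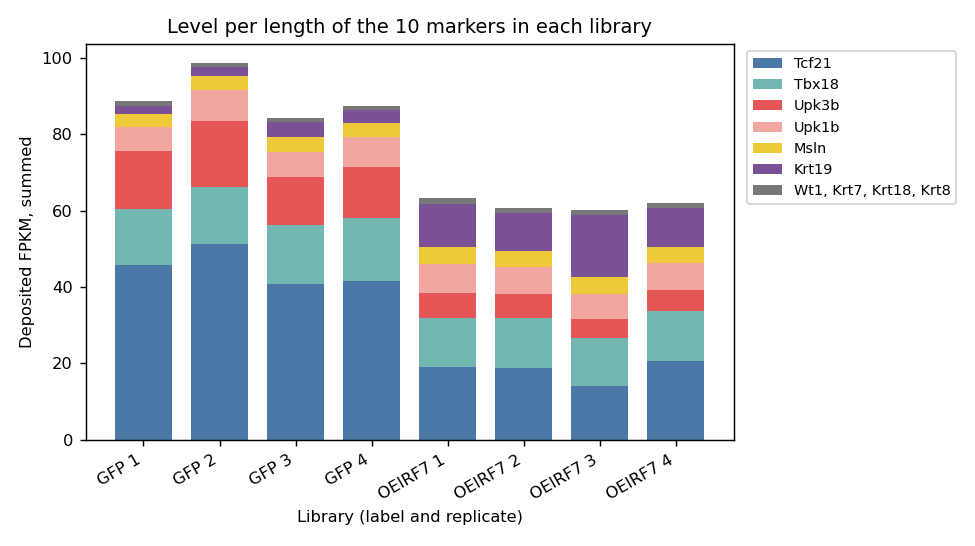
Deposited FPKM of the 10 markers, stacked, in each library (vertical axis from 0, 1 bar per library). The bars are lower in the 4 OEIRF7 libraries (60.1 to 63.2 against 84.2 to 98.7), with a smaller Tcf21 segment and a larger Krt19 segment.

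Further genes of the mesothelium were read beside the members. Of 18 found in the table, 12 were tested, 4 were higher and 8 lower in the OEIRF7 libraries (edgeR), with a median log2 fold change of -0.70 against 0.0015 for all tested genes. Of all tested genes 29.0% were higher and 29.9% lower, which is the background for this count and those of the lists that follow. The largest falls were Gpm6a, a neuronal membrane glycoprotein also made by mesothelium (13.7 ± 2.74 to 3.78 ± 0.97 CPM, n = 4 each, log2 fold change -1.87, SE 0.17), and Bnc1, a zinc-finger factor of basal epithelium and mesothelium (10.5 ± 0.70 to 3.37 ± 0.34 CPM, log2 fold change -1.63, SE 0.10). The largest rises were C3, the central complement component (37.5 ± 4.81 to 98.6 ± 11.9 CPM, log2 fold change 1.40, SE 0.090), and Prg4, the lubricant proteoglycan (6.07 ± 0.86 to 11.7 ± 1.17 CPM, log2 fold change 0.95, SE 0.11). Like the members, these genes moved in both directions. Muc16 and Calb2, which mark mesothelium and mesothelioma, did not pass the filter and reached at most 0.314 and 0.243 CPM in any library.

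Of 17 other genes of the epicardium and its transition, 16 were tested, 4 were higher and 9 lower, with a median log2 fold change of -0.11. Aldh1a1, a retinaldehyde dehydrogenase, went from 857 ± 56.0 to 294 ± 13.8 CPM (log2 fold change -1.54, SE 0.047, edgeR adjusted p = 5.92e-12), and Tbx20, a cardiac T-box factor, from 744 ± 38.1 to 211 ± 29.2 CPM (-1.82, SE 0.078, edgeR adjusted p = 1.21e-10). Tbx20 thus fell much further on the log2 scale than its relative Tbx18, whose 95% interval ends at -0.39. Vcam1, the adhesion molecule of epicardium and inflamed endothelium, rose from 242 ± 16.4 to 563 ± 60.6 CPM (1.22, SE 0.066), and Bnc2, a relative of Bnc1, from 13.6 ± 0.36 to 16.5 ± 1.27 CPM (0.27, SE 0.069). Bnc1 and Bnc2 were therefore called in opposite directions.

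Of 16 other keratins, 3 passed the filter and all 3 were higher in the OEIRF7 libraries, as was Krt19. Krt80 went from 6.26 ± 1.29 to 10.5 ± 0.46 CPM (log2 fold change 0.75, SE 0.12) and Krt20, a type I keratin of intestinal and urothelial cells, from 0.63 ± 0.17 to 1.74 ± 0.30 CPM (1.45, SE 0.25), while Krt10 barely passed (0.61, SE 0.25, edgeR adjusted p = 0.0499). Krt4, Krt6a and Krt6b had no count. Of 25 genes of epithelial junctions and their regulators, 16 were tested, 6 were higher and 5 lower, with a median log2 fold change of -0.01. Dsp, the desmosomal plaque protein that anchors keratin filaments, fell from 130 ± 1.82 to 72.4 ± 3.85 CPM (-0.85, SE 0.040), and Cdh3 (P-cadherin) from 2.68 ± 0.92 to 0.48 ± 0.24 CPM (-2.46, SE 0.35). Dsc2, a desmosomal cadherin, rose from 0.24 ± 0.20 to 6.64 ± 0.24 CPM (4.74, SE 0.26, or 5.48 without GFP replicate 4), and the tight junction protein Cldn4 from 0.52 ± 0.11 to 3.45 ± 1.12 CPM (2.70, SE 0.28). Dsc2 passed the filter on low counts through the OEIRF7 libraries and Cdh3 through the GFP libraries, so each was tested on the strength of its higher group alone.

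**Figure D5:**
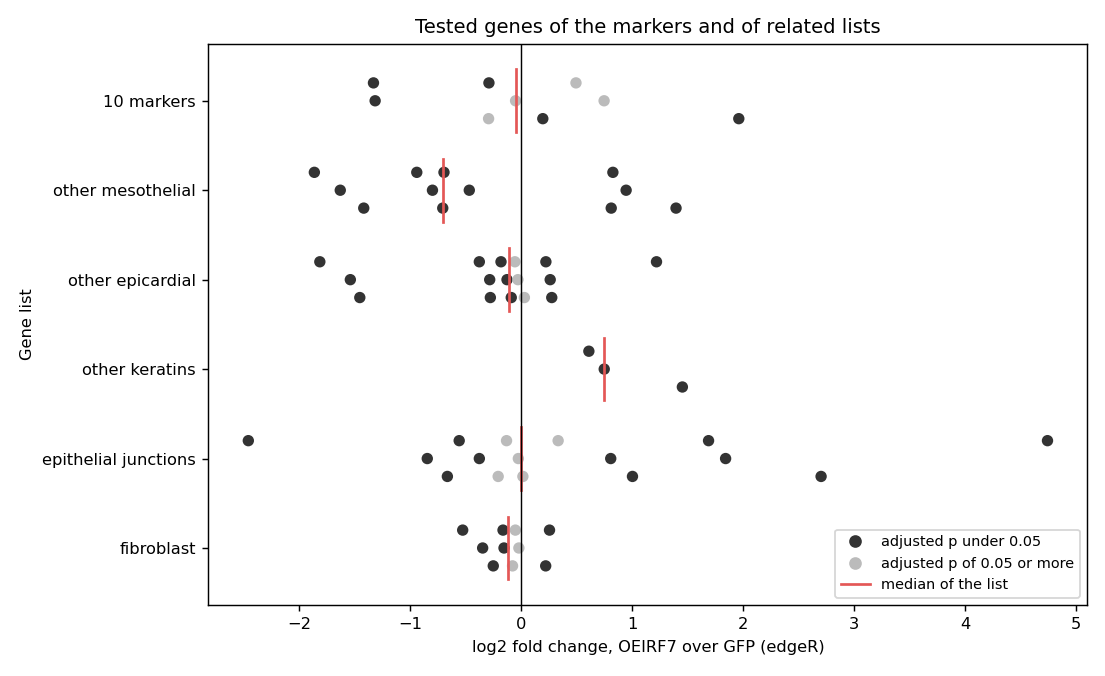
Log2 fold change of OEIRF7 over GFP (horizontal axis, edgeR) for each tested gene of the 10 markers, of 4 related lists and of fibroblast markers, with dark points for an adjusted p under 0.05 and a red bar at the median of each list. Genes lie on both sides of 0 in every list except the other keratins, of which 3 were tested and all rose.

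Markers of the other cells a cardiac culture could hold were read beside these differences. Of 10 fibroblast markers all were tested, 2 were higher and 5 lower (of which Lum lost its call in 6 of 16 alternatives), and their summed level was 14915 to 15394 CPM in the GFP libraries and 13789 to 14929 CPM in the OEIRF7 libraries. Cardiomyocyte markers summed to 9.95 to 13.7 and 7.62 to 9.81 CPM (1 of 8 tested, 1 lower), and endothelial markers to 217 to 231 and 221 to 250 CPM (7 of 7 tested, 3 higher, and 1 lower, Cdh5, which lost its call in 8 of 16 alternatives). Macrophage markers summed to 269 to 320 and 344 to 383 CPM (7 of 7 tested, 5 higher). The sums did not overlap between the labels for the cardiomyocyte list, lower under OEIRF7, or for the macrophage list, higher under OEIRF7. Of all tested genes, 53.8% did not overlap either. Mural markers summed to 122 to 135 and 107 to 130 CPM (6 of 7 tested, 3 higher, 2 lower), and Schwann cell markers to 23.1 to 29.2 and 23.7 to 29.3 CPM (4 of 5 tested, 0 called by edgeR, 0 at an unadjusted p under 0.05 and 0 by DESeq2). No marker of these 6 lists was at 0 in all libraries. Their part in the differences of Tcf21, Upk3b and Krt19 was not tested.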

How the data were processed

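RNA-seq of mouse primary cardiac fibroblasts was analysed, with 4 libraries labelled GFP and 4 labelled OEIRF7 after TGF-β. The authors mapped trimmed reads to GRCm38 with HISAT2 and deposited raw counts per gene from HTSeq-count. The authors also deposited FPKM from Cufflinks, normalized for gene length and depth. Versions of these tools and the strand setting are not given in the sources used here, and the labels and the methods name different extraction and library kits. Pooled columns and the authors' own comparison (fold changes and p-values) were not used, and 0 columns of single samples were left unmapped.

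Genes were joined by Ensembl identifier. In 121 symbols the letters nc stand as GFP in the table, and these symbols were restored by identifier. Coordinates came from GENCODE M21.

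Differences were tested on the counts with edgeR 4.0.16 under R 4.3.3. The filter (filterByExpr, given the groups) left 13533 genes, TMM factors were 0.989 to 1.01, and glmQLFTest followed glmQLFit with no covariates. Adjusted p-values are Benjamini-Hochberg values over all tested genes, with a threshold of 0.05. CPM values are after TMM scaling, with a prior count of 2 for their log2. Beside the members stands a two-sided exact permutation test on log2 CPM. Every pair of replicates differed by more than sampling noise (chi-square per degree of freedom 2.91 to 9.94). Wt1, Krt8 and Krt18 lie below 1 CPM, where precision is low. Scripts were tested on simulated data.

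The members and the other gene lists were chosen with earlier results of these data known. All 10 members are named, and of each other list the rule picks the 2 largest rises and falls with an adjusted p under 0.05 and a mean above 1 CPM. Of those in lists of other cell types, Lum and Cdh5 are named because their calls were lost under alternatives. Krt10, Muc16, Calb2 and genes without a count were added after their values were seen. Alternatives were no scaling, upper-quartile scaling, DESeq2 1.42.0, minimums of 1 count in total and 10 counts in every library, a replicate block, leaving out each library, and limma 3.58.1 on log2 FPKM with a pseudocount of 1 or of 0.1, where the mean was over 0.1 FPKM.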

Additional observations from a re-analysis of the deposited data

Results flagged for a closer look

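The Msln level of GFP replicate 1, 7.20 CPM, lay apart from the other 3 GFP libraries (8.09 to 8.20 CPM), with a gap to its nearest neighbour of 0.892 of the range of the group. It was the single value past the 95% limit of Dixon's test among 24 groups of 4 libraries checked, and chance flags about 1 in 20 such groups. Without this library the log2 fold change of Msln was 0.15 in place of 0.19, and its edgeR adjusted p was 0.15 in place of 0.048. No other GFP value of a member, and none in the OEIRF7 libraries, was set apart by this test.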

How the results depend on the processing

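The number of members called lower was 3 in all 16 alternatives. The number called higher was 1 in place of 2 under the replicate block, under DESeq2, with a minimum of 1 count in total and in each fit that left out 1 library (1 to 1), since Msln lost its call there. The adjusted p of Msln in those 11 settings was 0.060 to 0.15. Of 142 values of single members under the alternatives, 130 kept their direction and their side of the threshold. The sign of Upk1b turned without GFP replicate 2 (log2 fold change 0.0079, with -0.12 to 0.0079 over the fits without 1 library), while Upk1b passed the test under no setting. For Tcf21, Upk3b, Tbx18 and Krt19 the call held in all 16. The ratio of Krt19 to Krt18 was higher by 1.59 in log2 under the replicate block, with p = 0.125, the smallest that an exact permutation of 4 signs allows, and by 1.19 to 1.93 when 1 library was left out, with an exact permutation p of 0.057 without any 1 GFP library. The ratio of Krt8 to Krt18 ranged from -0.68 to 0.15 in log2 when 1 library was left out and turned positive without GFP replicate 1 (0.057), OEIRF7 replicate 1 (0.091) or OEIRF7 replicate 2 (0.15), with the cause not tested. Correlations of libraries with the same number were 0.079, 0.093, 0.138 and 0.105 after removal of group means. Every library correlated best with its own number, so a shared origin by number is possible. The study ties no number to a culture, and the main fit left the libraries unpaired. The replicate block is the fit that takes the numbers as pairs. Of 445 values of the 28 genes picked by the naming rule in the other lists, 431 kept direction and side, and the rest were lost calls of Cdh5 (8) and Lum (6). Krt8 gave values under DESeq2 and a minimum of 1 count in total alone, and scarce genes gave none with 10 counts in every library. Depth limits Wt1, Krt8, Krt18 and Krt7, which rest on 2 to 48 reads per library. The overlap of Tcf21 with an antisense gene was not resolved. Whether reads of an introduced human IRF7 were counted as mouse Irf7 was not tested.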
